A study of Mus musculus with 8 samples.

Results

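Potassium channel genes were defined as the genes whose symbol starts with Kcn, and 86 of the 22873 genes in the count tables met this rule after 4 antisense transcripts (Kcnd3os, Kcnmb4os1, Kcnmb4os2 and Kcnab3os) were left out. They comprised 35 genes for pore subunits of voltage-gated channels (Kv), 8 for calcium- or sodium-activated channels, 13 for inwardly rectifying channels (Kir), 12 for tandem-pore-domain leak channels (K2P) and 16 for auxiliary subunits. The other 2 members were Kcnrg, a regulator of voltage-gated channel assembly, and Kcnq1ot1, a noncoding RNA transcribed antisense to Kcnq1. Levels were described in all 10 annotated cell types of the mouse iris and compared between untreated, constricted and dilated irises.

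Potassium channels let potassium leave the cell and thereby pull the membrane potential away from the threshold at which voltage-gated calcium channels open. In smooth muscle, voltage-gated and calcium-activated channels limit contraction, and leak and inwardly rectifying channels set the resting potential. The pore subunits assemble with auxiliary proteins (the KChIP, KCNE, beta and BK beta families) that change their gating and surface level. In epithelia and pigment cells, potassium channels also take part in ion and fluid transport. The iris dilator and sphincter are a pair of opposed muscles, the first contracting under adrenergic and the second under muscarinic input.

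The 8 single nucleus libraries were made from irises of female albino mice of 6 to 8 weeks, labelled wild type, with 5 or 6 irises pooled per library and a variable part of the ciliary body attached. In the 3 constricted libraries the mice received 5% pilocarpine, a muscarinic agonist, every hour and were kept in the light. In the 2 dilated libraries they received 5% phenylephrine, an alpha-adrenergic agonist, with 1% cyclopentolate, a muscarinic antagonist, every hour and were kept in the dark. Irises were collected 6.5 hours after the first dose, and the 3 untreated libraries received no drops. Drug and lighting cannot be told apart, nor can the agonist and the antagonist in dilated irises. Each library held 1274 to 7321 nuclei and 5189437 to 25136427 unique molecular identifiers (UMIs), 34357 nuclei in all. Of 29 checks of fixed markers in the 9 cell types that had any, 23 placed the marker highest in its own type. The exceptions were Myh11 in dilator, Chrm3, Adra1a and Syt1 in sphincter 2, Otx1 in iris pigment epithelium (PE) and Zic1 in ciliary body epithelium (CBE), and the type labelled CB had no fixed markers. Untreated replicate 1 and dilated replicate 1 shared 63 cell barcodes, 4.26% of the smaller library, and all other pairs shared at most 18. Results were therefore also computed without the nuclei whose barcode occurred in more than 1 library.

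A level is given in counts per 1000000 UMIs of that cell type in a library (CPM), as the mean ± SD over libraries. Nuclear RNA was counted over exons and introns, so long genes collected more UMIs. Across the 45 to 81 members with a UMI in a cell type, Spearman's correlation between untreated CPM and the length of the annotated gene was 0.29 to 0.63, a description across genes that share libraries. Levels of different genes are therefore also compared per kilobase of gene (CPM per kb). The cell types were defined by clustering the same counts, so that levels between cell types are a description without a test.

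The nuclei labelled CB, from the ciliary body, held the most potassium channel RNA in untreated irises, with a summed level of 16555 ± 1825 CPM (n = 3). The dilator followed with 9091 ± 600 CPM, then sphincter 2 with 7859 ± 744 CPM and sphincter 1 with 7748 ± 870 CPM. The order among these 2 sphincter types did not exceed their spread. CBE held 5304 ± 438 CPM, iris PE 3170 ± 179 CPM, stroma 1, marked by Sox10, Tbx1, Pax3 and Mitf, 3108 ± 229 CPM and stroma 2, marked by Tfap2b, Glis1 and Pdgfra, 2983 ± 108 CPM. The last 3 did not differ beyond their spread. Endothelial cells (2221 ± 375 CPM) and leukocytes (1522 ± 596 CPM) held the lowest sums and rested on 149 and 193 untreated nuclei. A single gene, Kcnip4, made up much of these sums. Without it CB held 7954 CPM, followed by sphincter 1 with 6975 CPM, sphincter 2 4609 CPM and dilator 3986 CPM. Sphincter 1 was the highest of the 10 types for 17 of the 57 members with at least 50 untreated UMIs, against 7 each in CB, CBE and stroma 2 and none in dilator. The matching share over all genes was not computed. In untreated libraries 19 members had no UMI in sphincter 1, against 5 in dilator.

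**Figure D1:**
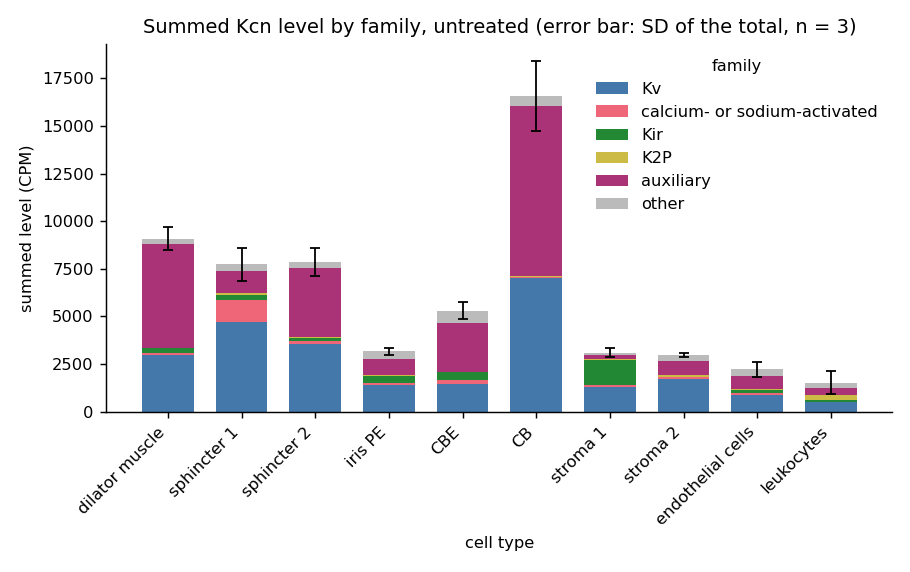
Summed level of the 86 Kcn genes in untreated irises (y axis, CPM, starting at 0) in each of the 10 cell types, stacked by family; each bar is the mean of 3 libraries and the error bar is the SD of the total. The CB bar reaches 16555 CPM, and the Kir part is largest in stroma 1, where it is 1346 CPM.

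The families were unequally spread over the cell types. Kv pore genes held 4707 CPM of the sum in sphincter 1, with 3570 CPM for sphincter 2 and 3002 CPM for dilator. In CB they held 7013 CPM, below the 8945 CPM of the auxiliary genes. Calcium- or sodium-activated channel genes reached 1159 CPM in sphincter 1 and at most 189 CPM in the other types. Kir genes reached 1346 CPM in stroma 1, against 418 CPM in CBE, 350 CPM in iris PE and 26.3 CPM in CB. K2P genes, which encode background leak channels, were highest in leukocytes with 246 CPM and were 124 CPM in sphincter 1 and 32.9 CPM in dilator.

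Among Kv genes, Kcnb2, a slowly inactivating delayed rectifier subunit, marked all 3 muscle types. Its untreated level was 1300, 1454 and 1504 CPM in the 3 dilator libraries, 1688, 1666 and 1546 CPM in sphincter 1 and 1228, 1994 and 2267 CPM in sphincter 2. The muscles overlapped with each other, and all their libraries exceeded those of every other type, in which the mean was 299 CPM or less. Kcnq5, a subunit of the slowly activating M-type current, was 4617 ± 1034 CPM in CB, 1785 ± 213 CPM in sphincter 1, 1031 ± 52.6 CPM in stroma 1, 914 ± 82.7 CPM in sphincter 2 and 814 ± 107 CPM in dilator. Kcnq3, a further M-type subunit, was placed elsewhere, with 831 ± 73.7 CPM in stroma 2 and 31.4 ± 39.5 CPM in leukocytes, the next type, a ratio of 26.4. Kcnh1, an ether-a-go-go channel, was highest in CB (854 ± 220 CPM) and CBE (451 ± 51.5 CPM).

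Sphincter 1 was set apart by a group of channel genes that were low in the dilator. Kcnma1, the pore gene of the large-conductance calcium-activated BK channel (chr14:23289431-24014491, minus strand, mm10), stood at 1538, 818 and 918 CPM in the 3 untreated libraries of sphincter 1, at 82.5, 97.8 and 91.9 CPM in sphincter 2. In dilator its level was 8.02 ± 1.17 CPM. All sphincter 1 libraries lay above all sphincter 2 libraries, with a ratio of the means of 12.0. Kcnmb1, the smooth muscle beta subunit of BK, did not follow its pore gene: it was 66.7 ± 12.8 CPM in sphincter 1 against 61.2 ± 13.5 CPM in sphincter 2, overlapping, and 0.515 ± 0.634 CPM (4 UMIs) in dilator. Kcnmb1 lies opposite Kcnip1, which was also highest in the sphincters (79.6 and 51.2 CPM), and as the counting strand was not stated their reads may not be separable. Kcnd3, a pore subunit of the fast inactivating A-type current (chr3:105452330-105674002, plus strand, mm10), stood at 515 ± 145 CPM in sphincter 1. Its level was 174 ± 33.4 CPM in sphincter 2 and 24.0 ± 7.89 CPM in dilator. Kcna4, another A-type pore gene, had 37.0 ± 1.62 CPM in sphincter 1 but 2.58 ± 3.26 CPM in sphincter 2, and Kcnip2, a KChIP subunit of A-type channels, was 21.4 ± 4.81 CPM in sphincter 1 and 4.01 ± 4.37 CPM in CB, the next type. Kcnk3, an acid-sensitive leak channel, was ordered like Kcnd3, with 67.6 ± 16.8 CPM in sphincter 1, then 25.1 ± 7.58 CPM in sphincter 2, then 3.15 ± 2.21 CPM in dilator. Kcne4, a KCNE subunit, was 11.6 ± 3.98 CPM in sphincter 1 and 2.67 ± 1.60 CPM in iris PE, the next type.

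In the other cell types single members stood out. Kcnj13, an inwardly rectifying channel known from pigment and transporting epithelia, was 952, 1447 and 1545 CPM in the untreated libraries of stroma 1 and 110 ± 27.7 CPM in CBE, the next type. At 157 CPM per kb it was also the member with the highest level per length in any cell type. Kcnj13 lies opposite Gigyf2, which was itself 627 CPM in stroma 1 and 143 to 221 CPM elsewhere, so reads of the pair may not be separable. Kcnip3, a KChIP protein also known as a transcriptional repressor, was 238 ± 64.7 CPM in stroma 2 and 25.8 CPM in stroma 1. Kcnk13, a leak channel of microglia and macrophages, was 186 ± 19.5 CPM in leukocytes and 52.9 ± 18.7 CPM in stroma 2. Kcnmb4, a neuronal type of BK beta subunit, was highest in iris PE with 101 ± 6.29 CPM. Kcnrg was 117 ± 50.4 CPM in leukocytes (60 UMIs) and at most 37.1 CPM elsewhere. Kcne1 was named for a ratio of 4.13 between CB and stroma 1, but at 5.94 ± 7.56 CPM its libraries overlapped and no placement could be read. Of the 86 members, 5 in dilator and 41 in endothelial cells had no UMI in untreated libraries; 3 UMIs, the limit that a count of 0 allows, correspond to 0.200 CPM in dilator and 7.82 CPM in endothelial cells, for counting error only.

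**Figure D2:**
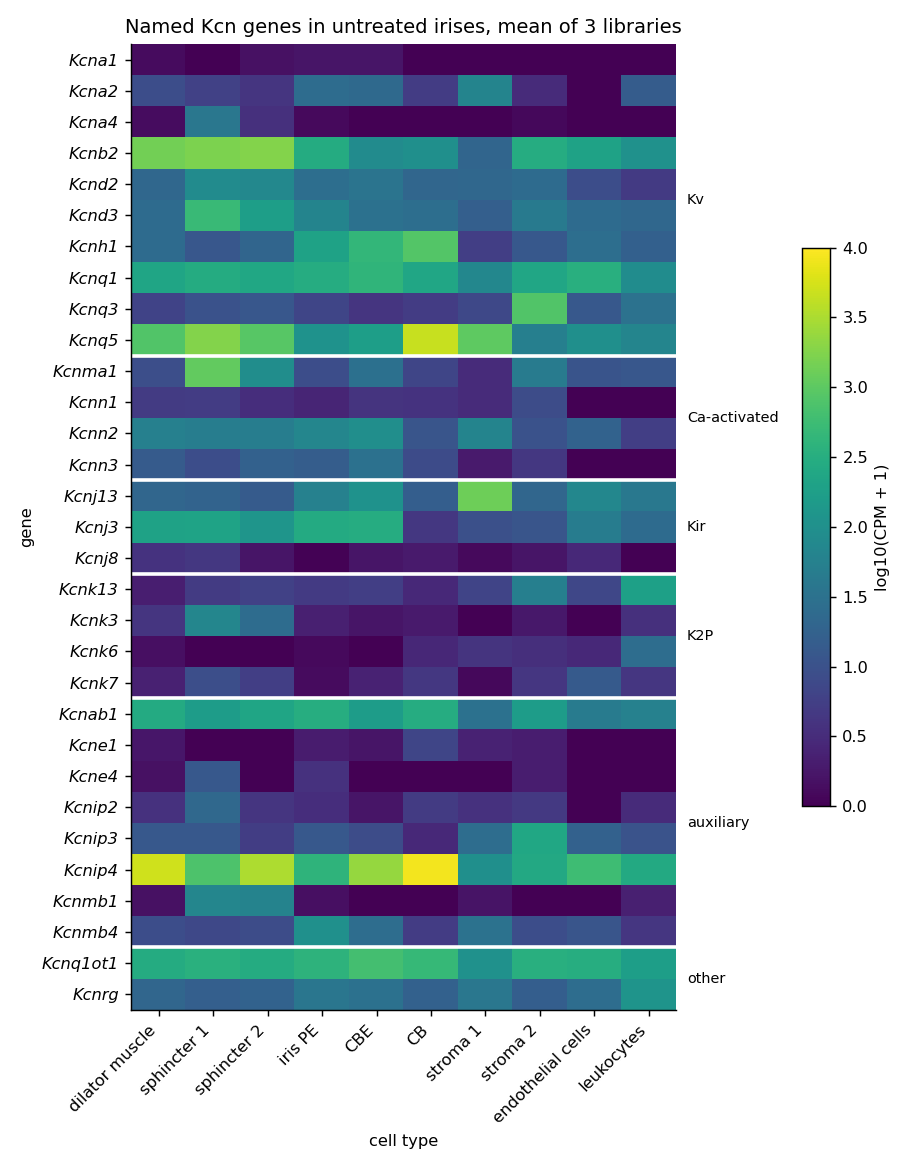
Untreated level of 31 named Kcn genes (rows, grouped by family) in the 10 cell types (columns), as log10(CPM + 1) of the mean of 3 libraries. Kcnip4 is bright in CB, dilator, sphincter 2 and CBE, whereas Kcnma1, Kcnd3, Kcna4 and Kcnk3 are brightest in sphincter 1, Kcnj13 in stroma 1 and Kcnq3 and Kcnip3 in stroma 2.

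Kcnip4, a KChIP subunit that binds A-type channels, had the highest CPM of all members in 7 of the 10 cell types. It was 8601 ± 605 CPM in CB, 5105 ± 531 CPM in dilator, 3250.1 ± 43.9 CPM in sphincter 2, 2311 ± 165 CPM in CBE and 773 ± 130 CPM in sphincter 1. The gene spans 1135 kb, and per length it was 7.57 CPM per kb in CB, below the 8.19 CPM per kb of Kcnq5, and 4.50 CPM per kb in dilator. In leukocytes its 3 untreated libraries differed widely, with 66.2, 595 and 130 CPM.

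The first question asked of the treatments was which channel genes changed in dilated irises. A gene was called changed where edgeR's quasi-likelihood test gave a Benjamini-Hochberg adjusted p under 0.05 over all genes tested in that cell type and the log2 fold change exceeded 0.6 in size. Of the 86 members, 58 passed the filter on low counts in at least 1 cell type, giving 222 combinations of member and cell type. Of these, 20 were called, 10 higher and 10 lower, in 16 genes. Dilator muscle held 13 of them among 52 members tested (25.0%), against 13.3% of all genes tested in dilator. Sphincter 2 held 3 of 15 (2.87% of all genes), sphincter 1 2 of 21 (1.95%), iris PE 1 of 43 (0.595%) and stroma 2 1 of 33 (1.73%). No member was called in CBE, CB, stroma 1, endothelial cells or leukocytes, where 0.0122%, 0.0665%, 1.17%, 0% and 1.32% of all genes were called. In these types 3, 1, 4, 1 and 1 members had an unadjusted p under 0.05 by edgeR's test. The matching share of all genes at an unadjusted p was not computed. DESeq2 called 21 combinations, of which 19 were the same. With the series of library numbers in the titles as a term, 32 were called, including all 20. The share of all genes called was not computed for either of these fits. With the constricted libraries as the control, 8 of 52 members were called in dilator (10.5% of all genes). Of the 20, 8 were called under each of the 16 alternatives, among them Kcnd3, Kcna1, Kcnmb4, Kcnj3 and Kcnn2 in dilator, and Kcnd3 and Kcnma1 in sphincter 2. Of these, Kcna1 passed the filter on low counts only through its dilated libraries, as given below. Among the other calls, Kcnj8 and Kcnn1 in dilator and Kcna4 in sphincter 1 passed it only through libraries outside the dilated group. Dilated and untreated libraries did not overlap in 69 of the 222 combinations, among them all 20 called. A lack of overlap therefore adds nothing to a call, and its share over all genes was not computed. In summed counts, fewer nuclei with a transcript and less of it per nucleus cannot be told apart.

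In dilator muscle of dilated irises, 6 members were higher (7.20% of all genes were) and 7 were lower (6.14% of all genes were), while the median log2 fold change over the 52 members was -0.04, beside 0.02 over all genes tested. By family, 3 of 22 Kv genes rose and 1 fell, 3 of 6 calcium- or sodium-activated genes fell, 2 of 6 Kir genes fell, 1 of 7 K2P genes rose, and among 9 auxiliary genes 1 rose and 1 fell. The sum of the dilator markers was lower in these nuclei. Adra1a, Chrm2, Nos1 and Myh11 summed to 3081 to 3467 CPM in untreated and 1797 to 1916 CPM in dilated libraries. Most of the untreated sum was Myh11 (1931 CPM), which ranked 3 of 10 in dilator, beside 479 CPM for Adra1a, 630 CPM for Chrm2 and 246 CPM for Nos1. By in situ hybridization the paper found Adra1a transcripts unchanged in dilated dilator, and it quantified the other dilator probes relative to Adra1a. That result concerns Adra1a alone and not the sum. The part of these markers in the changes below was not tested.

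The risers among the Kv genes included Kcnd3 and Kcna1. Kcnd3 was 33.0, 18.4 and 20.6 CPM in untreated and 106 and 73.1 CPM in dilated libraries. Both dilated libraries lay above all untreated and constricted ones (20.6 to 40.1 CPM), with a log2 fold change of 2.17 ± 0.26 (SE, adjusted p = 0.00022). Kcna1, a low-threshold Shaker-type subunit, was at most 0.623 CPM in the untreated and 0.968 CPM in the constricted libraries and was 2.96 and 3.61 CPM in the dilated ones (log2 fold change 4.00 ± 0.74, adjusted p = 0.0035). This rested on 48 UMIs in dilated and 3 in untreated nuclei, a ratio of rates of 15.9 with an exact 95% counting interval of 5.13 to 79.8. Only the dilated libraries reached the level that the filter on low counts required. Kcna1 thus entered the test through the group where it was high, and its call is a description. Kcna2, its close relative, moved the opposite way, from 9.97, 6.33 and 7.28 CPM to 2.47 and 3.21 CPM (log2 fold change -1.25 ± 0.36, adjusted p = 0.034), a call that was lost when any untreated or dilated library was left out and with the constricted libraries as the control. The abundant Kv genes of dilator were not called: Kcnb2 was 1051 ± 239 CPM in dilated and 1419 ± 106 CPM in untreated libraries (log2 fold change -0.26 ± 0.19, adjusted p = 0.42), and Kcnq5 had a log2 fold change of -0.26 ± 0.23 (adjusted p = 0.52).

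All called members of the small-conductance calcium-activated (SK) family fell in dilator. These channels open on submembrane calcium and hyperpolarize the cell. Kcnn2 was 61.1, 52.4 and 46.3 CPM in untreated and 18.8 and 24.0 CPM in dilated libraries (log2 fold change -1.12 ± 0.19, adjusted p = 0.0021). Kcnn3 went from 13.7, 12.7 and 12.8 CPM to 4.74 and 6.01 CPM (log2 fold change -1.11 ± 0.27, adjusted p = 0.015). Kcnn1 went from 4.36, 4.36 and 3.01 CPM to 1.28 and 0.601 CPM (log2 fold change -1.74 ± 0.46, adjusted p = 0.023). Kcnn1 entered the test through libraries outside the dilated group, where it was higher, and its call is a description. As in every call, dilated and untreated libraries did not overlap for any of the 3. The constricted libraries stayed within 47.1 to 55.6 CPM for Kcnn2, 11.6 to 16.5 CPM for Kcnn3 and 3.08 to 3.55 CPM for Kcnn1. The Kcnn3 call was lost without dilated replicate 1, untreated replicate 2 or untreated replicate 3, and the Kcnn1 call without either dilated library or untreated replicate 2 and with the constricted libraries as the control (adjusted p = 0.052). A330093E20Rik, on the opposite strand at Kcnn2, had a log2 fold change of -0.90 ± 0.53 (adjusted p = 0.29) in dilator, and reads of the pair may not be separable.

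Both called Kir genes fell as well. Kcnj3, a pore subunit of channels opened by G protein beta-gamma subunits downstream of receptors such as Chrm2, was 167, 212 and 213 CPM in untreated, 154, 194 and 143 CPM in constricted and 73.3 and 80.8 CPM in dilated libraries (log2 fold change -1.18 ± 0.20, adjusted p = 0.0016). Kcnj8, the pore subunit of a channel closed by ATP, was 2.49, 2.53 and 3.48 CPM in untreated and 0.691 and 0.401 CPM in dilated libraries (log2 fold change -2.13 ± 0.60, adjusted p = 0.032, 9 UMIs in dilated nuclei). Its partner subunit Abcc9 fell from 7.17 ± 1.40 to 1.89 ± 0.402 CPM (log2 fold change -1.77 ± 0.38, adjusted p = 0.0087). Both genes are also markers of pericytes. Of the other pericyte markers, Rgs5 was 0.316 to 3.12 CPM in untreated and 0.200 to 1.38 CPM in dilated libraries of dilator, and Notch3 was 7.60 to 16.2 and 5.01 to 7.70 CPM. Their part in the Kcnj8 result was not tested, and the call was lost without untreated replicate 2 or 3 or either dilated library. Kcnj8 entered the test through libraries outside the dilated group, where it was higher, and its call is a description.

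Among leak and auxiliary genes, Kcnk3 was 0.623, 4.08 and 4.75 CPM in untreated and 10.6 and 7.41 CPM in dilated dilator (log2 fold change 1.43 ± 0.43, adjusted p = 0.044), a call that was lost without either dilated library, without untreated replicate 2 or 3, without the nuclei that shared a barcode, and with the constricted libraries as the control (adjusted p = 0.093). Kcnmb4, which makes BK channels resistant to some toxins and slows their gating, was 9.97, 6.76 and 6.49 CPM in untreated and 28.8 and 20.6 CPM in dilated libraries, with no overlap (log2 fold change 1.94 ± 0.26, adjusted p = 0.00042). An antisense transcript within it, Kcnmb4os2, rose alongside (log2 fold change 2.30 ± 0.64, adjusted p = 0.030), and reads of the pair may not be separable. Its pore gene Kcnma1 was 8.02 ± 1.17 CPM in untreated and 5.12 ± 1.28 CPM in dilated dilator (log2 fold change -0.42 ± 0.29, adjusted p = 0.38). Kcnip4 fell from 5715, 4856 and 4744 CPM to 3476 and 2309.5 CPM (log2 fold change -0.64 ± 0.19, adjusted p = 0.044), and it was not called without dilated replicate 2, constricted replicate 1 or any 1 of the untreated libraries, or with the constricted libraries as the control (log2 fold change -0.41 ± 0.19, adjusted p = 0.20). Of the opposite-strand transcripts at Kcnip4, Gm20700 had a log2 fold change of -1.19 ± 0.37 (adjusted p = 0.052) and 5730480H06Rik of -0.38 ± 0.20 (adjusted p = 0.24). Kcnrg rose from 18.1, 22.8 and 19.6 CPM to 31.3 and 30.7 CPM (log2 fold change 0.77 ± 0.18, adjusted p = 0.013), and was not called without dilated replicate 2 or untreated replicate 3, or with the constricted libraries as the control (log2 fold change 0.55 ± 0.18). Kcnrg lies opposite Dleu2 in the annotation.

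**Figure D3:**
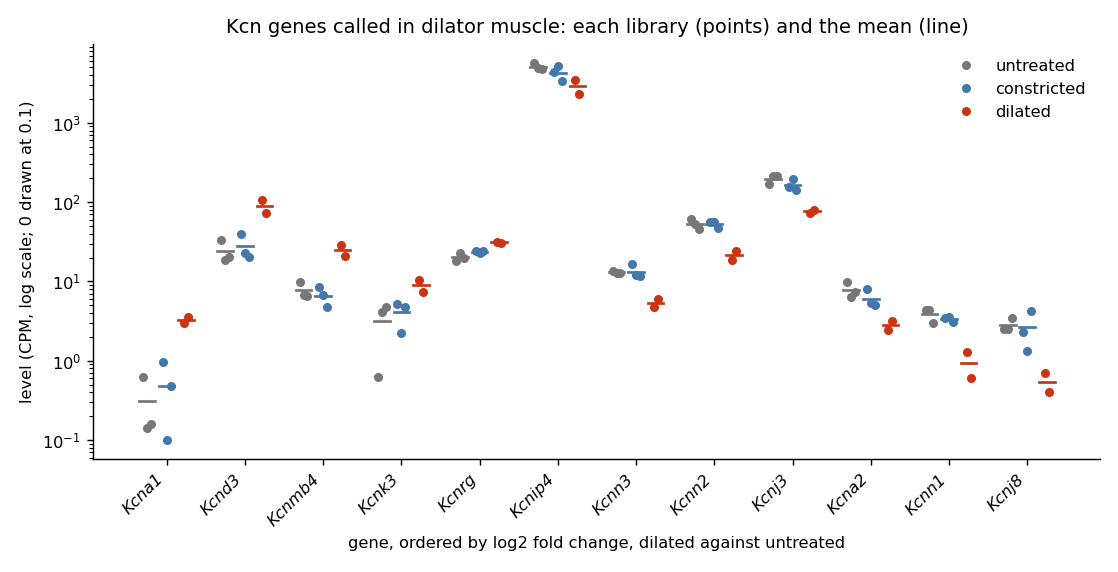
Level of 12 Kcn genes called in dilator muscle (x axis, ordered by log2 fold change) in each untreated (grey, 3 libraries), constricted (blue, 3) and dilated (red, 2) library; points are libraries, lines are group means, and the y axis is CPM on a log scale with 0 drawn at 0.1. The red points lie above all grey points for the first 5 genes and below them for the remaining 7, and the blue points overlap the red ones for Kcnip4 but for none of the other 11 genes.

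Of the risers, Kcnd3 and Kcnk3 were highest in sphincter 1 in untreated irises (515 and 67.6 CPM). The sphincter 1 markers Chrm3, Syt1, Ttn and Mybpc1 summed to 105 to 114 CPM in untreated dilator and to 72.9 to 74.6 CPM in dilated dilator. Of these, Ttn and Mybpc1 were also lower in sphincter 1 itself in dilated irises, as given below. Kcnmb4 was highest in iris PE. No placement could be read for Kcna1, since iris PE (0.694 ± 0.620 CPM) overlapped with CBE (0.693 ± 1.20 CPM). Kcna1 had 16 untreated UMIs over all cell types. The iris PE markers Zic1 and Otx1 summed to 78.5 to 83.2 CPM in untreated and 53.3 to 66.5 CPM in dilated dilator. The paper also places Otx1 in the iris muscles, so this sum does not measure RNA of iris PE alone. Zic1 by itself was 9.57 to 17.46 CPM in untreated and 10.22 to 15.99 CPM in dilated dilator, which overlapped. The part of iris PE RNA in the Kcnmb4 and Kcna1 results was not tested.

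The promoters of the called members were compared by sequence. RefSeq (GRCm38.p6) windows from 250 bases before to 50 bases after a start site were at hand for 70 genes with a Kcn symbol. Some of these, such as Kcna3 and Kcnj1, were not among the 86 members. The windows covered the risers Kcnd3, Kcnmb4 and Kcnrg and 6 of the 7 genes that fell, but not Kcna1 or Kcnk3. The search was for TGACG, the core letters of the cyclic AMP response element (CRE) bound by CREB-family factors, on both strands. The 250 bases upstream of the start are shown for the 3 risers and for Kcnj8, a faller with a match, and capitals mark TGACG or its reverse complement.
Kcnd3 promoter (chr3:105451640-105451889, + strand): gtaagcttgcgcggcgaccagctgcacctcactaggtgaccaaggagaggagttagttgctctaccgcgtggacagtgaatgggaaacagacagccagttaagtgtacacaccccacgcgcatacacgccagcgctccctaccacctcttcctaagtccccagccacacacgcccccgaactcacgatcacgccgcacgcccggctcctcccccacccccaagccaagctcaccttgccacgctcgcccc
Kcnmb4 promoter (chr10:116473524-116473773, - strand): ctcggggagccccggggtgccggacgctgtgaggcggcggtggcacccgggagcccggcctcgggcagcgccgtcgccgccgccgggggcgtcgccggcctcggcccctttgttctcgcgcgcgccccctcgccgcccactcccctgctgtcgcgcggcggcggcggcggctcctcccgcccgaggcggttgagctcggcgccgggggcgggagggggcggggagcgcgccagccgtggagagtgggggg
Kcnrg promoter (chr14:61607207-61607456, + strand): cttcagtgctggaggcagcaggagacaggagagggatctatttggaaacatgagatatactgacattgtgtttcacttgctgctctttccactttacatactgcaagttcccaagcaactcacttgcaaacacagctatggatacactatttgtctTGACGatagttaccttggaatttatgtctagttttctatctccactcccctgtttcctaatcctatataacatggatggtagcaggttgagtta
Kcnj8 promoter (chr6:142571615-142571864, - strand): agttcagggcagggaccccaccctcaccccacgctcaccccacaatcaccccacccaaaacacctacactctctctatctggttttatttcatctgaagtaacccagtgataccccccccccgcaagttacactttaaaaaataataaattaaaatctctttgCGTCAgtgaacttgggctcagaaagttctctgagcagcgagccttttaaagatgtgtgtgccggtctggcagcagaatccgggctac

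TGACG was present in the windows of 1 of the 3 risers (Kcnrg), of 2 of the 6 fallers (Kcnj8 and Kcnn1) and of 8 of the 31 tested members that were not called, against 6228 of 27025 genes (23.0%) and 20.8% of the 32851 windows. The full palindrome TGACGTCA, which contains it, occurred in none of the 70 Kcn genes with a window and in 2.03% of all genes. The AP-1 letters TGANTCA occurred in 4 of these 70 Kcn genes, among them the faller Kcnip4, and in 8.97% of all genes. A match describes these letters in this window only.

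In the sphincters, which relax when the pupil dilates, the BK pore gene moved in opposite directions in the 2 types. In sphincter 1, Kcnma1 was 1538, 818 and 918 CPM in untreated, 1050, 2161 and 1135 CPM in constricted and 458 and 395 CPM in dilated libraries (log2 fold change -1.29 ± 0.30, adjusted p = 0.023). In sphincter 2 it was 82.5, 97.8 and 91.9 CPM in untreated, 94.1, 159 and 101 CPM in constricted and 263 and 293 CPM in dilated libraries (log2 fold change 1.66 ± 0.25, adjusted p = 8.5e-05). Dilated and untreated libraries did not overlap in either type, and the difference of the 2 effects was 2.78 ± 0.26 on the log2 scale (adjusted p = 1.6e-11), in a test chosen once these values were known. In that test 4 of 20 members were called, beside 1.88% of all genes with a larger and 1.45% with a smaller effect in sphincter 2. The sphincter 1 call was lost without either dilated library and without untreated replicate 1 or 3, and the sphincter 2 call was kept under each. Its beta subunit gene Kcnmb1 was 69.0 ± 16.6 CPM in dilated sphincter 1 (log2 fold change 0.01 ± 0.30, adjusted p = 0.996) and 53.3 ± 3.16 CPM in dilated sphincter 2 (log2 fold change -0.23 ± 0.35, adjusted p = 0.85), overlapping the untreated libraries in both. Marker lists of the muscles were also summed in these nuclei, but they do not measure a share of other cells. In untreated libraries the dilator list in both sphincters overlapped that in dilator (3081 to 3467 CPM). The sphincter 2 list was higher in sphincter 1 (8011 to 8946 CPM), and it shares Chrm3 and Syt1 with the sphincter 1 list. Sphincter 1 markers in sphincter 2 summed to 2941 to 3558 CPM in untreated and 1915 to 2159.5 CPM in dilated libraries, where Kcnma1 was higher. In sphincter 1 they were 11369 to 12940 CPM and 10684 to 11530 CPM. Dilator markers in sphincter 2 were higher in dilated libraries, with 3710 to 3926 CPM against 2987 to 3606 CPM in untreated ones and 3883 to 4612 CPM in constricted ones. The sphincter 2 markers Chrm3, Adra1a and Syt1 were lower there, with 1863 to 2226 CPM in dilated and 2620 to 3438 CPM in untreated libraries. Both lists moved without overlap beside the changes of Kcnma1, Kcnd3 and Kcnip4 in sphincter 2, and their part in them was not tested. In sphincter 1, dilator markers were 3059 to 3543 CPM in untreated and 3065 to 3736 CPM in dilated libraries. Within the sphincter 1 list the striated muscle genes Ttn and Mybpc1 were lower in sphincter 1 of dilated irises (Ttn 451 ± 82.9 against 1683 ± 356 CPM), and their part in the result was not tested.

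Kcnd3 rose in sphincter 2 as in dilator, from 137, 181 and 203 CPM to 567 and 412 CPM (log2 fold change 1.49 ± 0.25, adjusted p = 0.00053). The constricted libraries held 302, 166 and 122 CPM and lay below both dilated ones. In sphincter 1, where Kcnd3 was high in untreated irises, it was 445 ± 80.7 CPM in dilated and 515 ± 145 CPM in untreated libraries (log2 fold change -0.14 ± 0.24, adjusted p = 0.93), and the difference between the sphincters was 1.51 ± 0.25 (adjusted p = 2.8e-05). The dilated level in sphincter 2, 489 ± 109 CPM, was thereby within the spread of that in sphincter 1. Kcnip4, whose product binds Kcnd3, fell in sphincter 2 from 3289, 3203 and 3259 CPM to 1911 and 1025 CPM (log2 fold change -1.08 ± 0.21, adjusted p = 0.0017), while the constricted libraries held 2503, 2367 and 2313 CPM, between the other groups and below all untreated ones. The call was lost without dilated replicate 2 and with the constricted libraries as the control (log2 fold change -0.67 ± 0.20, adjusted p = 0.080). Kcna4 fell in sphincter 1 from 37.6, 38.3 and 35.2 CPM to 5.45 and 11.5 CPM (log2 fold change -2.0 ± 0.48, adjusted p = 0.027), resting on 7 UMIs in dilated nuclei. The call was lost with DESeq2, without doublets, and without either dilated library or untreated replicate 2 or 3. Kcna4 entered the test through libraries outside the dilated group, where it was higher, and its call is a description. Kcnk3 in sphincter 1 was 34.1 ± 5.78 CPM in dilated and 67.6 ± 16.8 CPM in untreated libraries, without overlap, but did not pass (log2 fold change -1.06 ± 0.32, adjusted p = 0.11). It was called with the library series as a term and with the constricted libraries as the control (log2 fold change -1.38 ± 0.34, adjusted p = 0.023).

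**Figure D4:**
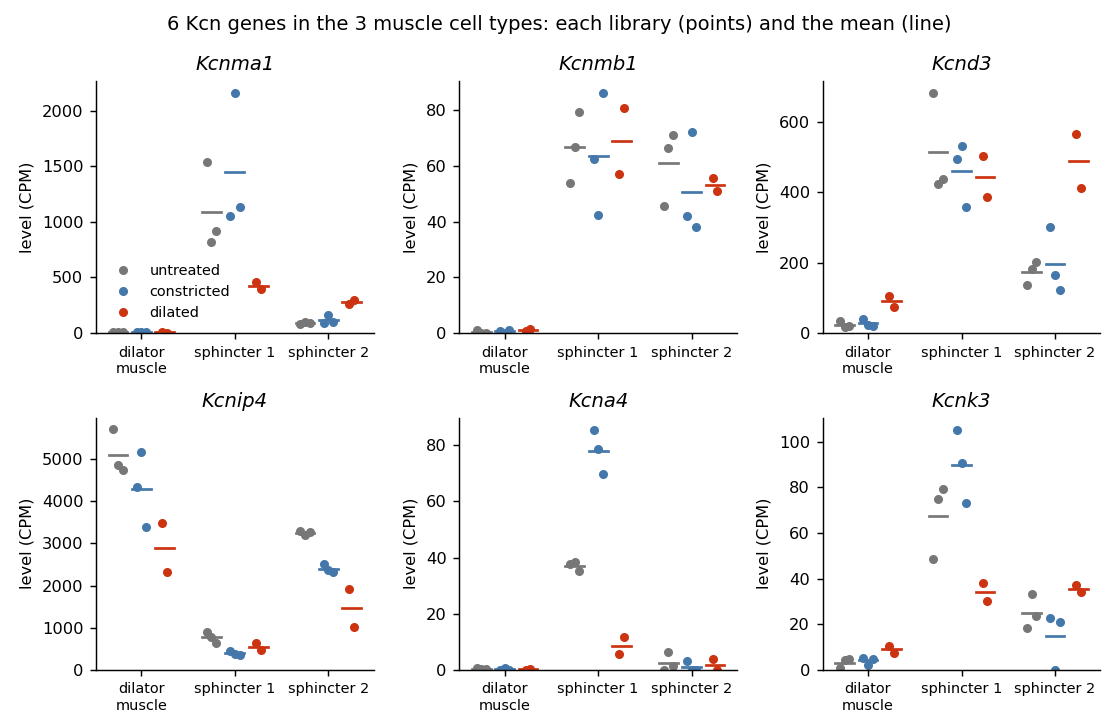
Level (y axis, CPM, starting at 0) of 6 Kcn genes in dilator muscle, sphincter 1 and sphincter 2; points are libraries and lines are group means, for untreated (grey), constricted (blue) and dilated (red) irises. Kcnma1 is lower in dilated sphincter 1 and higher in dilated sphincter 2, Kcnd3 rises in dilator and sphincter 2 toward the level of sphincter 1, and Kcna4 in sphincter 1 is 78.0 CPM in constricted, 37.0 CPM in untreated and 8.50 CPM in dilated irises.

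Outside the muscles, 2 members were called. Kcnn2 rose in iris PE, the sheet that lies directly on the dilator, from 103, 54.1 and 43.9 CPM to 212 and 384 CPM (log2 fold change 2.29 ± 0.37, adjusted p = 0.015), the direction opposite to that in dilator. The dilated libraries lay above all untreated and constricted ones (47.5 to 105 CPM), and the call was lost without dilated replicate 2 or untreated replicate 2 or 3. A330093E20Rik, the opposite-strand transcript at Kcnn2, had a log2 fold change of 1.67 ± 0.44 here (adjusted p = 0.13). Its part in the Kcnn2 counts was not tested. Dilator markers in iris PE were 107 to 109 CPM in untreated and 61.6 to 92.0 CPM in dilated libraries. Abcc8, a regulatory subunit of channels closed by ATP, rose in iris PE as well, from 50.8 ± 7.77 to 118 ± 26.7 CPM (log2 fold change 1.23 ± 0.22, adjusted p = 0.025). Kcnk13 rose in stroma 2 from 61.6, 65.7 and 31.4 CPM to 237 and 116 CPM (log2 fold change 1.81 ± 0.39, adjusted p = 0.036). One constricted library, with 113 CPM, came close to the lower dilated one, and the call was lost without dilated replicate 1, any 1 of the untreated libraries or constricted replicate 2, and with the constricted libraries as the control (log2 fold change 1.35 ± 0.38, adjusted p = 0.18). Kcnk13 was highest in leukocytes in untreated irises, and the leukocyte markers Ptprc, Mrc1 and Cd74 summed to 7.19 to 16.9 CPM in untreated and 4.09 to 7.55 CPM in dilated stroma 2. The endothelial markers Pecam1, Cdh5, Flt1 and Erg were higher in dilated stroma 2, with 179 to 259 CPM against 62.5 to 157 CPM in untreated libraries, as were the stroma 1 markers, with 209 to 212 CPM against 166 to 191 CPM. The part of either list in the Kcnk13 result was not tested.

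Whether the response in another cell type differed from that in dilator was tested by the interaction term in a joint fit. Over 9 cell types 38 differences in 15 genes were called. Iris PE held 11 of 57 members tested, 5 with a larger and 6 with a smaller effect than dilator (6.20% and 6.03% of all genes). The 6 include Kcna1, which entered this fit through its dilated dilator libraries. CBE held 6 of 46 (1.87% and 2.31%), sphincter 1 6 of 43 (2.67% and 4.04%), stroma 2 5 of 51 (3.66% and 4.48%), sphincter 2 4 of 33 (0.702% and 1.40%), CB 3 of 42 (1.59% and 1.47%) and stroma 1 3 of 36 (1.74% and 3.99%). None was called in endothelial cells (0.148% and 0.381%) or leukocytes (0.298% and 0.447%), the types with the fewest nuclei. Kcnd3 differed in 7 of the 9 types and Kcnmb4 and Kcnn2 in 5 each. For Kcnd3 the effect in sphincter 2 was smaller than in dilator (difference -0.76 ± 0.21, adjusted p = 0.019), as it was in sphincter 1 (difference -2.27 ± 0.19, adjusted p = 3.1e-17). For Kcnmb4 the iris PE level was 112 ± 2.04 CPM in dilated and 101 ± 6.29 CPM in untreated libraries, and the effect there was smaller than in dilator (difference -1.79 ± 0.19, adjusted p = 4.1e-07). For Kcnn2 the effect was larger than in dilator by 3.46 ± 0.25 in iris PE (adjusted p = 1.6e-09) and by 2.61 ± 0.26 in CBE (adjusted p = 1.4e-16), where its level was 217 ± 17.2 CPM in dilated and 94.1 ± 60.4 CPM in untreated libraries. For Kcnj3 the fall of dilator was not matched in these epithelia, with differences of 1.02 ± 0.13 in iris PE (adjusted p = 4.5e-06) and 1.23 ± 0.21 in CBE (adjusted p = 2.9e-06). Kcnma1 differed from dilator also in stroma 2, by 2.90 ± 0.46 (adjusted p = 0.00065). Its dilated libraries spread widely there (213 ± 149 CPM, against 45.6 ± 13 CPM in untreated), and the change itself was not called (adjusted p = 0.081). Among the fits that kept both dilated libraries, that change was called with the library series or the replicate number as a term, with no filter on low counts, and without constricted replicate 1 or 3.

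**Figure D5:**
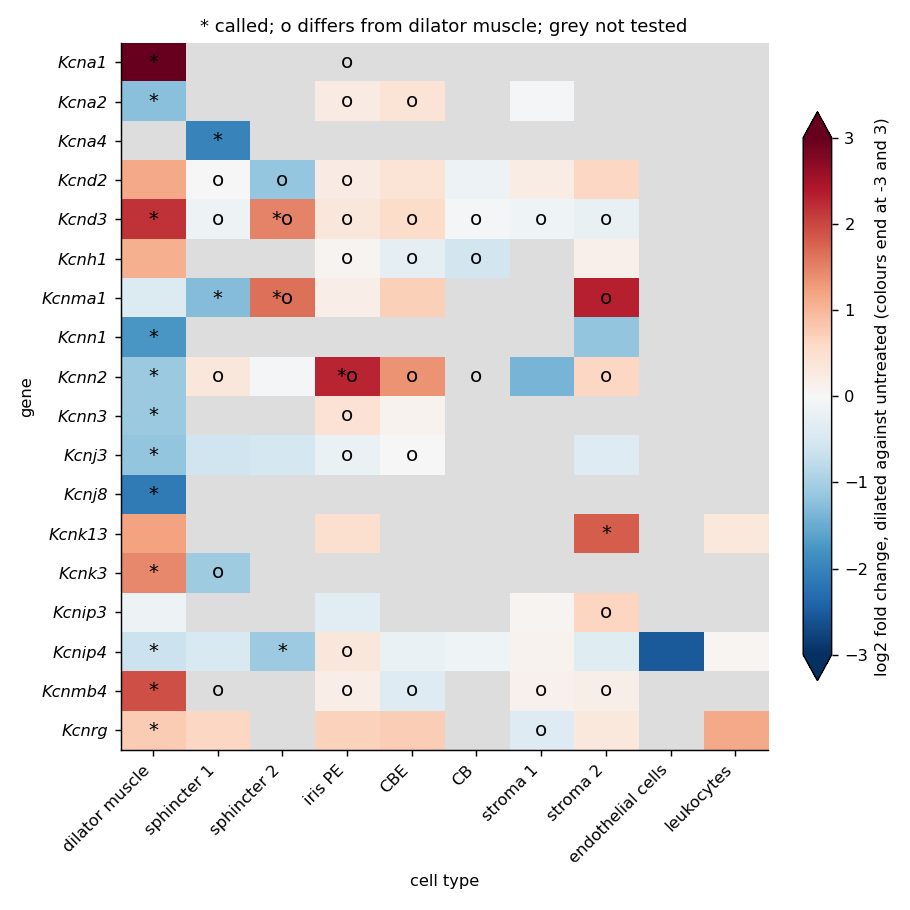
Log2 fold change of dilated against untreated irises (red higher, blue lower, colors ending at -3 and 3) for 18 Kcn genes in the 10 cell types, grouped by family from top to bottom; a star marks a call, a circle a difference from dilator muscle, and grey a gene below the count filter in the fit of that cell type alone (a circle on grey comes from the joint fit). The dilator column holds 12 of the 19 stars, and Kcnn2 is blue in dilator and red in iris PE.

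In constricted irises no member was called in any of the 222 combinations by edgeR. Of all genes, 0.0897% were called in sphincter 2, 0.0156% in stroma 2, 0.00708% in iris PE, 0.0065% in dilator and 0% in the other types. By edgeR's test 18 combinations had an unadjusted p under 0.05, and the matching share of all genes was not computed. DESeq2 called 1, Kcnip4 in sphincter 1, which was also called with the library series as a term and with no filter on low counts. Kcnip4 was there 454, 369 and 348 CPM in constricted and 903, 772 and 644 CPM in untreated libraries, without overlap (edgeR log2 fold change -0.94 ± 0.20, adjusted p = 0.083). Kcna4 in sphincter 1 was 85.6, 78.7 and 69.7 CPM in constricted and 37.6, 38.3 and 35.2 CPM in untreated libraries, also without overlap, and did not pass (log2 fold change 1.10 ± 0.29, adjusted p = 0.24). Constricted and untreated libraries did not overlap in 19 of the 222 combinations, and the share over all genes was not computed. Sphincter 1 held 5 of the 18 combinations with an unadjusted p under 0.05, among them Kcnq1, Kcnq3 and Kcnrg, all with positive log2 fold changes (0.49 to 1.79). Without the share over all genes, this count is not a result about the members.

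Genes that work beside the channels were compared from 2 lists, 19 partner proteins and 15 potassium pumps and cotransporters. In dilator, 3 of 14 partner genes tested fell in dilated irises and none rose, beside 6.14% of all genes lower and 7.20% higher. They were Abcc9, given above, Dpp6, a transmembrane partner of A-type channels that went from 144 ± 6.41 to 49.3 ± 6.31 CPM (log2 fold change -1.36 ± 0.22, adjusted p = 0.0016), and Adam22, which went from 59.9 ± 4.79 to 34.2 ± 2.39 CPM (log2 fold change -0.64 ± 0.17, adjusted p = 0.024). Of 13 pump and cotransporter genes 6 rose and none fell, beside the same 7.20% of all genes higher and 6.14% lower, with a median log2 fold change of 0.39 against 0.02 over all genes tested. They included the sodium-potassium ATPase genes Atp1b1, Atp1b2 and Atp1b3 and the chloride cotransporters Slc12a2 and Slc12a4. Slc12a2 rose from 25.9 ± 7.16 to 60.0 ± 10.9 CPM (log2 fold change 1.46 ± 0.22, adjusted p = 0.00083). Slc12a2 also rose in stroma 2, from 240 ± 117 to 1501 ± 66.0 CPM (log2 fold change 2.73 ± 0.36, adjusted p = 0.0038). None of the genes of either list was called in constricted irises.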

How the data were processed

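The study profiled single nuclei of mouse irises in 8 libraries (3 untreated, 3 constricted and 2 dilated). Per the labels and the study's methods, the authors prepared libraries with 10x Genomics Chromium v3, aligned reads with Cell Ranger 3.1.0 to an mm10 index of unspliced transcripts, so that intronic reads counted, removed nuclei with more than 1% mitochondrial transcripts, under 500 or over 6000 transcripts, and clustered the others with Seurat. The deposited matrices hold raw UMI counts per gene and nucleus, and the deposited nucleus tables give the cell type and the percent of mitochondrial transcripts. The 8 libraries were made in 5 processing batches and sequenced in 2 runs, which the sources used here do not tie to libraries. The paper states that each condition was spread over at least 2 batches and that both runs held libraries of every condition. Whether counting used strand was not given in the sources used here. Depth limits the rare cell types: 1 library held as few as 12 endothelial nuclei.

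UMI sums of each cell type in each library were tested with edgeR 4.0.16 (R 4.3.3; TMM, filterByExpr, quasi-likelihood, two-sided), 1 fit of all 8 libraries per cell type with condition as the term, so that the conditions shared 1 estimate of the spread. Differences between cell types were tested by the interaction term with a term for each library. The steps were tested on simulated data. Genes were placed with GENCODE vM21 (GRCm38), in which all 86 members were found by symbol. Each pool of irises was 1 sample, and nuclei were not treated as replicates.

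Alternatives were DESeq2 1.42.0, RLE normalization, no filter on low counts, the library number series or the replicate number as a block, constricted libraries as the control, leaving out each library, and leaving out the 341 doublets called by Scrublet (scanpy 1.11.5). Chosen after seeing the data were leaving out nuclei with a barcode found in more than 1 library, and the test of sphincter 2 against sphincter 1. Named genes were the 3 members highest in CPM and in CPM per kb in each cell type, every member called in a contrast or for a difference from dilator, and members with at least 50 untreated UMIs at least 4 times higher in one cell type than in the next. Others named in the text were chosen after their values were seen. A few genes that count toward the totals are not reported here. The members, the lists and the tests were chosen with earlier results of these data known.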

Additional observations from a re-analysis of the deposited data

Results flagged for a closer look

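The dilation effect, as a log2 fold change, differed between cell types by the interaction test for 14 members named here compared with dilator muscle. Each is given as the value of the other cell type minus that of dilator, in the cell type with the smallest adjusted p. Smaller in the other type were Kcna1 (-3.35 in iris PE), Kcnd2 (-2.47 in sphincter 2), Kcnd3 (-2.27 in sphincter 1), Kcnh1 (-1.56 in CB), Kcnk3 (-2.46 in sphincter 1), Kcnmb4 (-1.79 in iris PE) and Kcnrg (-1.20 in stroma 1). Larger in the other type were Kcna2 (1.59 in iris PE), Kcnip3 (0.86 in stroma 2), Kcnip4 (0.98 in iris PE), Kcnj3 (1.23 in CBE), Kcnma1 (2.02 in sphincter 2), Kcnn2 (2.61 in CBE) and Kcnn3 (1.66 in iris PE). The adjusted p ranged from 3.1e-17 for Kcnd3 to 0.042 for Kcna1. Kcnd2, Kcnh1 and Kcnip3 were not called in any single cell type in dilated against untreated irises in the main fit. For these genes the test gives a difference between cell types only. Kcna1 entered the joint fit through the dilated dilator libraries, where it was high, and rested on the few UMIs given above. Its difference is therefore a description.

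Between the sphincters, the effect in sphincter 2 minus that in sphincter 1 was 2.78 for Kcnma1, 1.51 for Kcnd3, -1.08 for Kcnab1 and -0.69 for Kcnip4, with adjusted p-values from edgeR of 1.6e-11 to 0.021, among 20 members tested, beside 1.88% of all genes with a larger and 1.45% with a smaller effect.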

How the results depend on the processing

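All 20 calls of dilated against untreated irises kept their direction in the alternatives run. Over 10 cell types the count was 20 with RLE, 21 with DESeq2, 19 without doublets, 20 without nuclei with a shared barcode and 30 with no filter, and leaving out 1 library gave 10 to 24, with 12 without dilated replicate 1, 12 without dilated replicate 2, 11 without untreated replicate 2 and 10 without untreated replicate 3. The library series block gave 32, and the cause was not tested. Shares of all genes called were computed for the main fits only, so the counts under other settings have no such share beside them. In dilator muscle the count of 13 became 8 with the constricted libraries as the control and 7 to 14 on leaving out 1 library. For constricted irises the count of 0 became 4 with no filter, 1 with the library series block, 1 with DESeq2, 1 without doublets and 0 to 1 on leaving out 1 library. The 38 differences from dilator became 26 to 46, and the 4 between the sphincters 2 to 4 on leaving out 1 library. Replicate numbers were not used to pair libraries in the main test. Between conditions, deviations from the condition mean in dilator correlated at 0.23 to 0.43 among the replicate 1 libraries. Among untreated replicates 2 and 3, constricted replicate 3 and dilated replicate 2 they correlated at 0.18 to 0.42, and between these 2 sets at -0.17 to -0.43. With 2 dilated libraries, the deviations of each mirror those of the other. Libraries thus varied together along the series of library numbers, for which the main test had no term. With the replicate block, 25 were called, including all 20 and, beside them, Kcnd2 and Kcnmb2 in dilator, Kcnma1 and Kcnq3 in stroma 2 and Kcnn2 in stroma 1, and 34 differences from dilator. Level ratios between cell types were followed for the 8 members chosen for a ratio of at least 4. They kept their direction in all 64 alternatives and moved by more than 1 SD in 6. That choice made a kept direction likely. The alternative in CPM per kb could not differ, as gene length cancels in a ratio of the same gene. With 2 dilated libraries, leaving out 1 assumes that the other varies like the other groups, and 28 members were tested in no cell type, none above 63.2 CPM in untreated irises.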

Other observations

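Some members missed a call in a cell type that the report describes otherwise. In stroma 2, Kcnq3, the gene that stands out there, was 420 ± 98.3 CPM in dilated and 831 ± 73.7 CPM in untreated libraries, without overlap (log2 fold change -0.94 ± 0.25, adjusted p = 0.089 by edgeR's quasi-likelihood test). Kcnq3 was called there with DESeq2, with the library series or the replicate number as a term, with no filter on low counts and without constricted replicate 3. Kcnip3 in stroma 2 was 352 ± 68.5 and 238 ± 64.7 CPM (0.64 ± 0.23, adjusted p = 0.26), and was called with no filter. In stroma 1, Kcnj13 was 917 ± 128 CPM in dilated and 1315 ± 317 CPM in untreated libraries (-0.51 ± 0.20, adjusted p = 0.25), with a call without untreated replicate 1, and Kcnn2 was 23.4 ± 14.2 and 63.4 ± 5.08 CPM (-1.39 ± 0.35, adjusted p = 0.056). Kcnn2 was called in stroma 1 with the library series or the replicate number as a term and with no filter on low counts. It was also called without nuclei with a shared barcode, and without constricted replicate 2 or 3. In CB, Kcnh1 was 569 ± 41.7 CPM in dilated, 604 ± 23.5 CPM in constricted and 854 ± 220 CPM in untreated libraries, and both treated groups lay below all untreated libraries without a call (adjusted p = 0.81 and 0.93).

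The summed level of all members in dilator was 9761, 8905 and 8606 CPM in untreated, 8539, 9473 and 6300.3 CPM in constricted and 7194 and 5186 CPM in dilated libraries, with both dilated libraries below the untreated ones. In iris PE it was 3170 ± 179 CPM in untreated and 3576 ± 580 CPM in dilated libraries, which overlapped.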
